A study of Rattus norvegicus with 115 samples.

Results

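Ms4a1, Mzb1, Jchain and Cxcl13 are 4 genes of the B-cell lineage and of the signal that draws B cells into a tissue. They were followed through 115 microarrays of rat brain tumours and of the opposite hemisphere. The genes were found by symbol: the array holds 5 probe sets annotated to exactly 1 of them, out of 14217 genes with a named probe set, and of the 4 only Jchain has more than 1. For each gene the probe set with the highest mean log2 level over all arrays was used.

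The rats were Fisher rats carrying 9L tumours, a rat glioblastoma line of which 100000 cells had been placed in the right caudate nucleus. Irradiation followed 10 days later, either as microbeam radiation therapy (MRT), with X-rays of 90 keV split into narrow beams that each gave 400 Gy while the tissue between them received 18 Gy, or as a uniform broad beam (BB) of 17,4 Gy, as the labels write it with a decimal comma. Tumours and contralateral regions were taken 6 h, 48 h, 8 d and 15 d after treatment. In order of time, there were 9, 8, 7 and 4 tumours after MRT, 6, 4, 4 and 4 after BB, and 5, 4 and 4 from rats left untreated, which end at 8 d. Contralateral groups numbered 5, 4 and 4 without treatment, 9, 7, 6 and 4 after MRT, and 6, 3, 4 and 4 after BB. Every rat, untreated ones included, carried a 9L tumour, and the rats' age and sex are not given in the sources used here. Untreated rats at 15 d were not analysed here, so the 15 d groups can be set only against each other, against 8 d and against the contralateral side. The 35 BB arrays carry their own set of labels and processing notes, so BB and that set cannot be told apart.

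B cells carry on their surface the protein that Ms4a1 encodes, CD20, and lose it when they turn into plasma cells. Plasma cells and plasmablasts secrete antibody. They depend on Mzb1, a chaperone of the endoplasmic reticulum for immunoglobulin chains, and make the joining chain encoded by Jchain, which links antibody units into polymeric IgM and IgA. Cxcl13 is a chemokine made by follicular stromal cells, macrophages and some helper T cells. It attracts B cells through the receptor Cxcr5 and organises B-cell follicles, including the lymphoid structures that can form in inflamed or cancerous tissue. Healthy brain holds few B cells.

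The promoter letters of the chemokine and of the joining chain are shown because both genes reached high intensities in late tumours. Each is the 250 bases before the start site, from RefSeq on build GRCr8, read 5' to 3' on the gene's strand. The Jchain window lies at chr14:19822726-19822975 on the plus strand and the Cxcl13 window at chr14:13917921-13918170 on the minus strand. The match of the TATA motif in the Cxcl13 window is in capitals, and the Jchain window holds none.
Jchain: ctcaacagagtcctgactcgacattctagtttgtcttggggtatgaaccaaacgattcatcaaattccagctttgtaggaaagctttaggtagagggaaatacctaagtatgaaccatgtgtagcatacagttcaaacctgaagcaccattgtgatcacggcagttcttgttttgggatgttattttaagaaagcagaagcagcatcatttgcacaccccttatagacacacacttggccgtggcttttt
Cxcl13: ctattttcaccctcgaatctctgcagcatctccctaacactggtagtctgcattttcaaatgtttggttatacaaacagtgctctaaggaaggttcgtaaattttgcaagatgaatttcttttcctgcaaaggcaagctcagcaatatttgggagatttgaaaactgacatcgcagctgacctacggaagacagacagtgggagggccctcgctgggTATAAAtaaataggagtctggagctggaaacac
The motif TATAAA, searched on both strands of windows of 300 bases (250 before the start site and 50 after), was found once for Cxcl13, starting 33 bases before the start site, and 14.2% of 33365 rat promoters hold it. The octamer ATGCAAAT, known from immunoglobulin promoters, is in 1.77% of those promoters and the NF-kB consensus motif in 7.53%. Neither was found in the window of Jchain or of Cxcl13. These matches are letters in a window and describe no binding. Promoters of Ms4a1 and Mzb1 were not used here.

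Values are the normalised intensities deposited by the authors, in arbitrary units, and differences are between means of their log2. The 115 array medians ran from 117 to 165, and the lower quartile of an array's probe sets was 37 at the median. The tissue labels were checked by markers. The mean log2 level of 13 neuron markers was 7.03 to 11.05 in tumours and 10.93 to 11.84 in contralateral arrays, and that of 13 genes of dividing tumour cells (mitosis genes, with Cdkn2a counted among them) 7.66 to 11.20 in tumours and 5.42 to 8.58 opposite. In 4 irradiated tumour arrays (MRT rats 6, 37 and 38, BB rat 47) the mitosis mean lay below 8.5. The untreated contralateral array of rat 18 at 48 h stood apart, with a median of 165 and a lower quartile of 64. The BB tumour array of rat 53 at 48 h had a GAPDH 3'-minus-5' difference of 2.35 (log2), a sign of poorer RNA, against a median of 0.15 over all arrays. These are bulk tissue pieces, in which more cells of a type and more transcript per cell cannot be told apart. Besides Ms4a1, 8 B-cell receptor and surface genes were measured, and others, Cd79a among them, were not analysed here.

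Until 48 h the B-cell marker and Mzb1 read at the low end of the array, and Jchain somewhat higher. Ms4a1 was between 20 and 47 in the 36 tumours taken at 6 h and 48 h, irradiated or not. Mzb1 was between 20 and 46 in the same tumours. Jchain was between 40 and 128 in them, reaching the 40.8th percentile of its array. Ms4a1 ranked no higher than the 20.5th percentile of its array in any of them and Mzb1 no higher than the 22.8th. At 48 h Jchain was 63 to 85 in MRT tumours and 49 to 58 in untreated ones, with no overlap, a difference of 0.46 ± 0.44 that was not called (limma adjusted p = 0.72). Its other, dimmer probe set went the other way, at 14 to 20 after MRT and 20 to 27 untreated. Averaging both probe sets gave 0.03 (adjusted p = 0.98). In the contralateral hemisphere Ms4a1 lay between 22 and 70, Mzb1 between 25 and 52 and Jchain between 45 and 168 over all times.

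**Figure D1:**
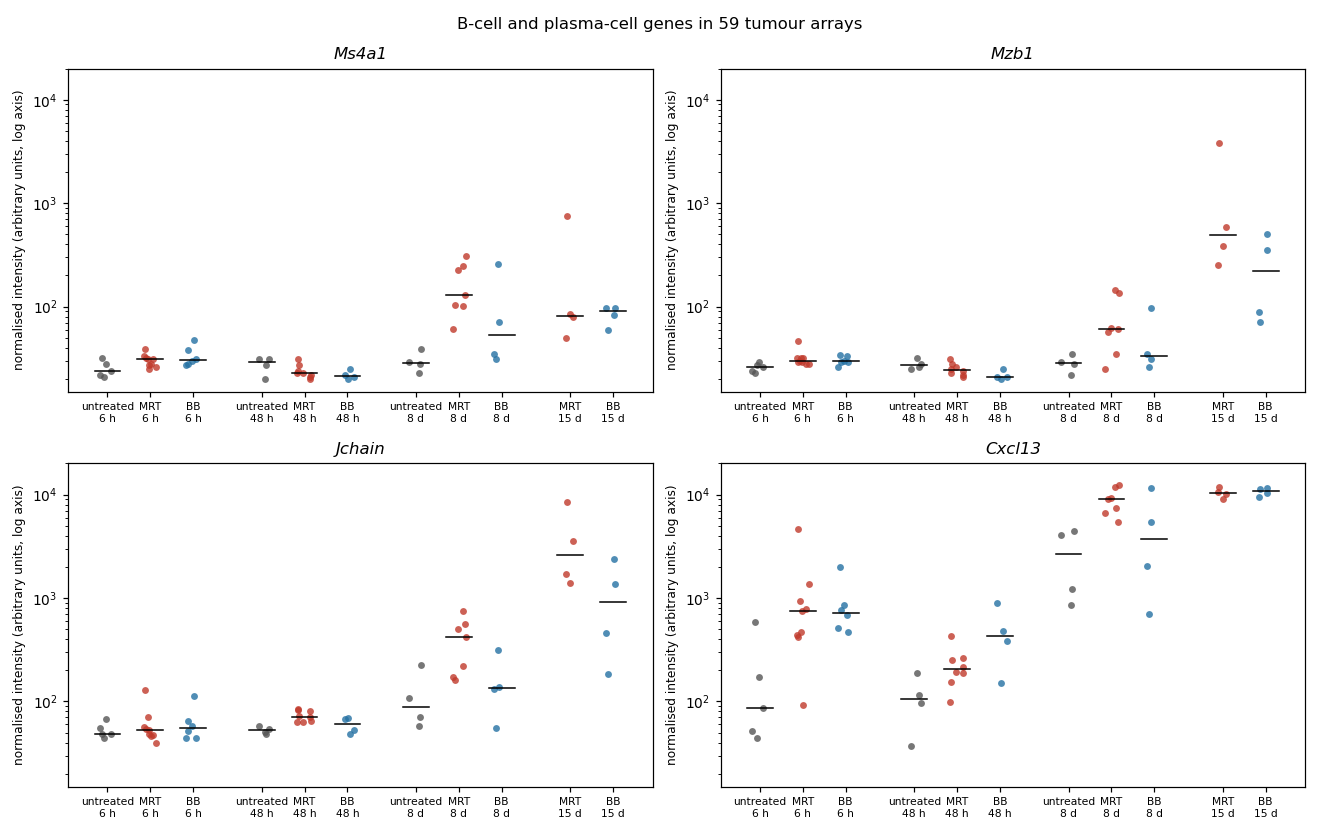
Normalised intensity (log axis) of Ms4a1, Mzb1, Jchain and Cxcl13 in each of 59 tumour arrays, by treatment and time. Points are arrays (1 rat each), coloured by treatment, and black bars are group medians. Ms4a1, Mzb1 and Jchain read at most 47, 46 and 128 at 6 h and 48 h and up to 758, 3846 and 8564 in irradiated tumours at 8 d and 15 d, and Cxcl13 already spreads from 37 to 4668 at 6 h and 48 h.

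At 8 d after MRT the tumours held more transcript of all 4 genes than untreated tumours taken at the same time. Ms4a1 was 23, 39, 29 and 28 in untreated rats 27 to 30. After MRT it was 307, 246, 104, 101, 61, 226 and 130 in rats 32 to 38. All 7 MRT tumours lay above all 4 untreated ones, and the mean rose by 2.32 ± 0.41 (log2 ± SE, a 5.0-fold difference, limma adjusted p = 8.2e-06 with Benjamini-Hochberg adjustment over all genes).

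Jchain was 58, 223, 107 and 70 in the untreated tumours at 8 d. After MRT it was 418, 756, 163, 220, 174, 498 and 561. The groups overlapped through untreated rat 28 at 223, which exceeded MRT rats 34, 35 and 36, and the difference was 1.79 ± 0.45 (limma adjusted p = 0.001). Averaging both Jchain probe sets gave 1.06 (adjusted p = 0.005).

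Mzb1, the immunoglobulin chaperone, was 22, 28, 29 and 35 in untreated tumours and 134, 145, 57, 35, 25, 62 and 61 after MRT. MRT rats 35 and 36 lay inside the untreated range and rats 32 and 33 well above it. The difference was 1.15 ± 0.43 (limma adjusted p = 0.023).

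Cxcl13, the follicle chemokine, was already high without treatment at 8 d, at 857, 4435, 4061 and 1220. After MRT it was 12287, 11782, 9136, 7498, 6600, 9172 and 5422, above every untreated tumour. The difference was 2.03 ± 0.65 (limma adjusted p = 0.0082). The 12287 of rat 32 stood at the 99.8th percentile of its array.

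Thus 4 of 4 members were called higher, on a background in which 47.8% of all genes were called and 21.8% were called higher. Without untreated rat 27 the calls of Mzb1 (1.03, adjusted p = 0.077) and Cxcl13 (1.60, adjusted p = 0.065) were lost. Single MRT tumours were not left out in this comparison. All 4 calls held when the tumours with few mitosis transcripts were left out. In these same tumours 13 of 13 mitosis genes fell (median -1.54), 10 of 13 neuron markers rose (median 1.42), and 11 of 11 T cell, 11 of 11 macrophage and 7 of 7 dendritic cell markers rose. With the neuron marker mean as a covariate all 4 members were still called, and the part of the other shifts in the rise of the members was not tested.

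The effect of MRT on Ms4a1 was larger at 8 d than at 48 h, by 2.50 ± 0.57 (limma interaction, adjusted p = 0.0015). The same interaction did not pass for Jchain (1.33 ± 0.63, adjusted p = 0.098), Mzb1 (1.30 ± 0.59, adjusted p = 0.086) or Cxcl13 (0.89 ± 0.90, adjusted p = 0.46), and 30.1% of genes were called in it. Without untreated rat 28 at 8 d Jchain was called too (1.72, adjusted p = 0.046), and with just these groups fitted Mzb1 and Jchain were. At 48 h itself no member was called between MRT and untreated tumours (0 of 4 also at an unadjusted p under 0.05), where 2.35% of genes were. Within MRT tumours all 4 rose from 48 h to 8 d, where 30.8% of genes were called. The rise was 2.63 ± 0.34 for Ms4a1, 1.33 ± 0.35 for Mzb1, 2.24 ± 0.37 for Jchain and 5.37 ± 0.53 for Cxcl13 (limma adjusted p = 0.0025 or lower).

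After BB the tumours at 8 d were uneven. Ms4a1 was 71, 260, 31 and 35 in rats 54 to 57. Mzb1 was 31, 97, 26 and 35 and Jchain 139, 314, 56 and 133 in the same rats. Cxcl13 was 5425, 11484, 697 and 2037. Rat 55 was the highest of the 4 for every member, within the range of the MRT tumours, and rat 56 the lowest for every member.

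No member was called between BB and untreated tumours at 8 d with limma (1 of 4 at an unadjusted p under 0.05), on a background of 22.9%. Ms4a1 differed by 1.20 ± 0.46 (adjusted p = 0.053). It was called when arrays were shifted to a common median (adjusted p = 0.042), without BB rat 56 (0.023) and without BB rat 57 (0.015). Jchain differed by 0.44 ± 0.51, Mzb1 by 0.53 ± 0.48 and Cxcl13 by 0.56 ± 0.73. The MRT and BB comparisons share their untreated tumours.

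Set directly against each other at 8 d, MRT minus BB was 1.13 ± 0.41 for Ms4a1 (limma adjusted p = 0.13), 1.35 ± 0.45 for Jchain (0.097), 0.62 ± 0.43 for Mzb1 (0.42) and 1.47 ± 0.65 for Cxcl13 (0.2). None of these passed (3 of 4 at an unadjusted p under 0.05), and 1.27% of genes did. Without BB rat 55 Ms4a1 (1.78, adjusted p = 0.0023), Jchain (1.76, 0.012) and Cxcl13 (2.11, 0.038) were called.

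From 48 h to 8 d after BB, Cxcl13 rose by 2.95 ± 0.73 (limma adjusted p = 0.0078) and Ms4a1 by 1.61 ± 0.46 (adjusted p = 0.021), with 10.5% of genes called. Both calls were lost without rat 55 (2.31, adjusted p = 0.093, and 0.96, adjusted p = 0.23). That of Ms4a1 was lost without BB rat 50 at 48 h too (adjusted p = 0.056), and Jchain was called without rat 56 (1.60, adjusted p = 0.042). With just these groups fitted neither was called (0.12 and 0.17).

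**Figure D2:**
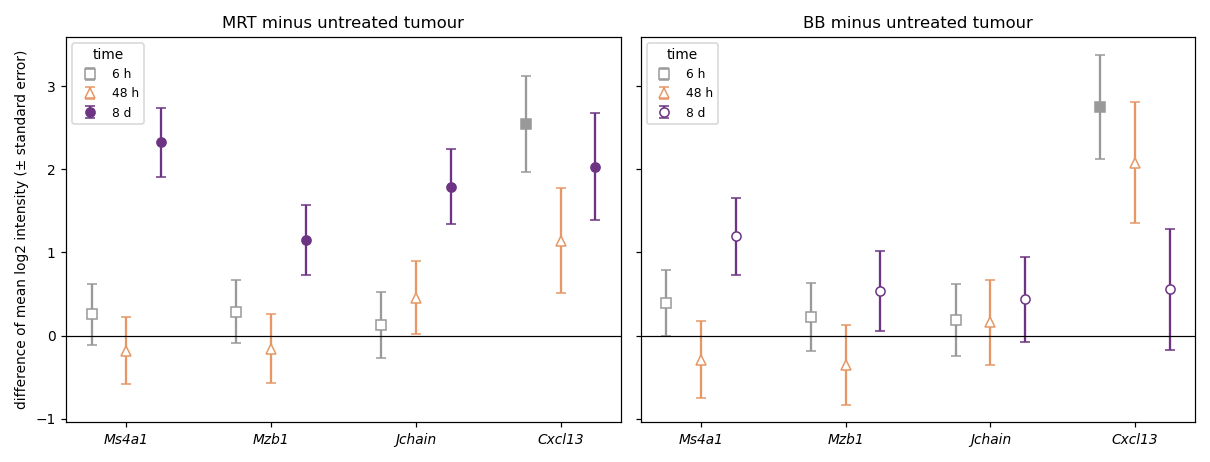
Difference of mean log2 intensity between irradiated and untreated tumours (± standard error from limma) for each gene at 6 h, 48 h and 8 d, after MRT (left) and BB (right). Filled symbols have an adjusted p under 0.05, which are Cxcl13 at 6 h on both sides and all 4 genes at 8 d after MRT.

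Between 8 d and 15 d after MRT both plasma-cell genes climbed further, while the B-cell marker was not called. In the MRT tumours at 15 d Mzb1 was 588, 250, 3846 and 388 in rats 40 to 43, each above all 7 MRT tumours at 8 d. The rise was 3.46 ± 0.43, an 11.0-fold difference (limma adjusted p = 1.6e-07). Without rat 42, the highest, it was 2.63 (adjusted p = 3.7e-06).

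Jchain was 3522, 1691, 8564 and 1404 in these tumours, again above every MRT tumour at 8 d, a rise of 3.09 ± 0.45 (limma adjusted p = 4.3e-06). Its other probe set read 98, 45, 379 and 61 in them, and both probe sets were highest in rat 42. Without rat 42 the rise was 2.57 (adjusted p = 8.1e-05).

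Ms4a1 was 79, 50, 758 and 84 at 15 d, so that 3 of the 4 rats lay below the 8 d median of 130. Its change was -0.21 ± 0.41 (limma adjusted p = 0.72). Rat 42 had the highest Ms4a1, Mzb1 and Jchain of the 115 arrays, and without it Ms4a1 fell by 1.08 (adjusted p = 0.018). Cxcl13 was 10101, 10514, 11970 and 9095, a change of 0.28 ± 0.65 (adjusted p = 0.76). For 15 d against 8 d after MRT 2 of 4 members were thus called, both higher, where 27.9% of genes were called and 16.1% were called higher.

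In BB tumours at 15 d Mzb1 was 88, 500, 71 and 352 in rats 58 to 61 and Jchain 463, 2359, 184 and 1371. Ms4a1 was 97, 83, 59 and 97. Cxcl13 was 9533, 10401, 11218 and 11459, with an SD of 0.12 (log2) against 0.16 after MRT. Rats 59 and 61 were high for both plasma-cell genes and rats 58 and 60 lower.

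Against BB tumours at 8 d, Jchain rose by 2.43 ± 0.51 (limma adjusted p = 0.0053) and Mzb1 by 2.16 ± 0.48 (adjusted p = 0.0095). Ms4a1 (0.30 ± 0.46, adjusted p = 0.76) and Cxcl13 (1.79 ± 0.73, adjusted p = 0.18) were not called, and 1.7% of genes were. Both calls were lost without BB rat 56 (adjusted p = 0.064 for each), without BB rat 59 (Jchain 0.069, Mzb1 0.091) and with just these groups fitted (0.21 and 0.2). That of Mzb1 was lost without BB rat 61 too (0.06).

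Both plasma-cell genes were higher after MRT than after BB at 15 d, Jchain by 2.00 ± 0.51 (limma adjusted p = 0.019) and Mzb1 by 1.91 ± 0.48 (adjusted p = 0.017), with 3.05% of genes called. The ranges overlapped. Jchain ran from 1404 to 8564 after MRT and from 184 to 2359 after BB. Mzb1 ran from 250 to 3846 after MRT and from 71 to 500 after BB. Without MRT rat 42 the differences were 1.49 for Jchain and 1.08 for Mzb1 (adjusted p = 0.13 and 0.2). Neither was called without BB rat 58 (0.096 and 0.12), without BB rat 60 (0.18 and 0.13) or with just these groups fitted (0.17 and 0.24). Ms4a1 (0.61 ± 0.46, adjusted p = 0.59) and Cxcl13 (-0.04 ± 0.73, adjusted p = 0.99) were not called, and that of Ms4a1 was -0.25 without MRT rat 42 (adjusted p = 0.9). The median difference in this comparison was 0.47 over 11 T cell markers and -0.12 over 11 macrophage markers. The GAPDH difference of the rat 42 array was 0.84, the second highest of the tumour arrays, and its part in the values of that rat was not tested.

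**Figure D3:**
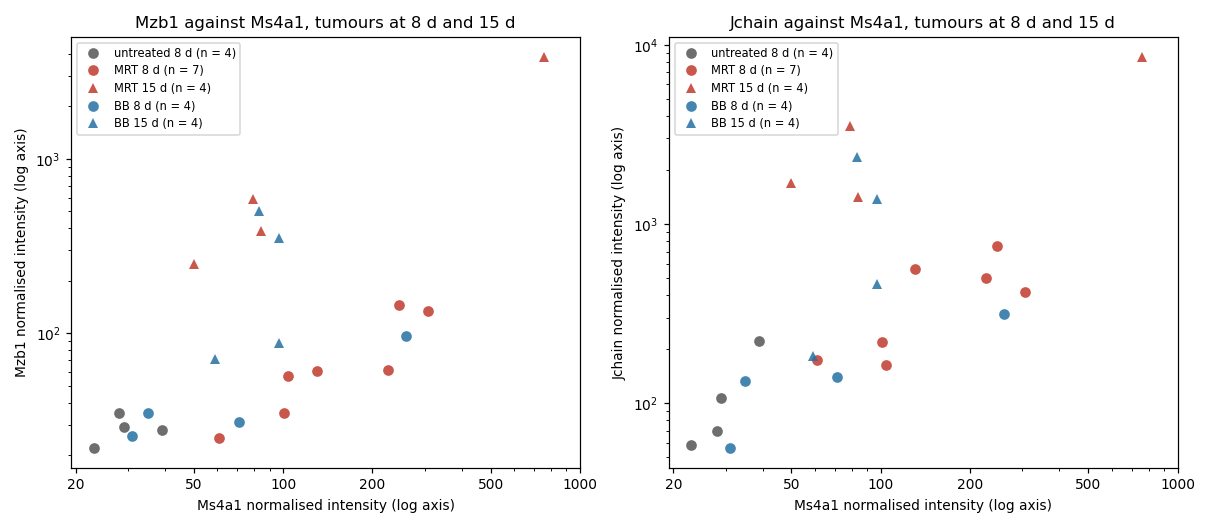
Mzb1 (left) and Jchain (right) against Ms4a1, normalised intensities on log axes, in the 23 tumours taken at 8 d and 15 d. Each point is 1 rat, coloured by treatment, with circles for 8 d and triangles for 15 d. The 15 d tumours with Ms4a1 of 50 to 97 carry Mzb1 of 71 to 588, and MRT rat 42 stands at the upper right of both plots.

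Cxcl13 was the one member called within hours of irradiation. At 6 h it was 172, 87, 52, 44 and 586 in untreated tumours of rats 1 to 5. After MRT it ran from 92 (rat 10) to 4668 (rat 7) with a median of 754, and after BB from 468 to 1994 with a median of 724.5. The MRT range overlapped the untreated one through untreated rats 1 and 5, and the BB range through untreated rat 5. The difference was 2.55 ± 0.57 after MRT (limma adjusted p = 0.0079) and 2.75 ± 0.62 after BB (adjusted p = 0.0021). Cxcl13 was 1 of 4 members called each time, with 1.01% of genes called higher after MRT and 10.3% after BB. The MRT call was lost without untreated rat 3 (0.057) or rat 4 (0.068), and both calls were lost with just the groups compared fitted (0.19 and 0.064).

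MRT and BB tumours at 6 h differed by -0.20 ± 0.54 in Cxcl13 (limma adjusted p = 0.82). No member was called between them (0 of 4 also at an unadjusted p under 0.05), where 15.7% of genes were.

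By 48 h Cxcl13 was lower again in the MRT tumours, from 99 to 428. The change from 6 h was -1.70 ± 0.50 (limma adjusted p = 0.022, and 0.057 with just these groups fitted), with 9.77% of genes called. Untreated tumours read 115, 97, 37 and 188 at 48 h and BB tumours 386, 151, 478 and 893. The lowest BB value came from rat 53, the array with the large GAPDH difference. BB exceeded untreated by 2.08 ± 0.73 (adjusted p = 0.095), so that no member was called at 48 h (1 of 4 at an unadjusted p under 0.05), on a background of 2.6%. From 6 h to 48 h after BB Cxcl13 changed by -0.96 ± 0.67 (adjusted p = 0.31), with no member called (0 of 4 at an unadjusted p under 0.05) and 23.5% of genes called. Between MRT and BB at 48 h limma called no gene (0%, with 515 of 14217 genes at an unadjusted p under 0.05) and no member at either p.

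Without any irradiation Cxcl13 climbed from a median of 87 at 6 h to 2640.5 at 8 d, a rise of 4.18 ± 0.69 with no overlap between the groups (limma adjusted p = 5e-05). The other 3 members were not called in that comparison, in which 29.2% of genes were. Jchain changed by 0.93 ± 0.48, Ms4a1 by 0.22 ± 0.44 and Mzb1 by 0.13 ± 0.46. Within the untreated tumours at 8 d, rats 28 and 29 had more Cxcl13 (4435 and 4061) than rats 27 and 30 (857 and 1220). The same 2 rats had the higher means of T cell markers, 7.74 and 7.57 (log2) against 5.84 and 5.91.

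In the contralateral hemisphere Cxcl13 was again the member that moved at 6 h, at lower levels. It was 21, 23, 29, 18 and 15 in untreated rats 1 to 5. After MRT it ran from 29 (rat 10) to 353 (rat 7) with a median of 172, and after BB from 89 to 130 with a median of 113. The rats with the lowest and the highest MRT value on this side were those with the lowest and the highest in the tumour.

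This rise was 2.82 ± 0.43 after MRT (limma adjusted p = 2.1e-06) and 2.39 ± 0.47 after BB (adjusted p = 2.2e-04). Cxcl13 was 1 of 4 members called each time, with 8.22% and 21.6% of genes called. The MRT effect on Cxcl13 at 6 h in tumour minus that in contralateral tissue was -0.27 ± 0.74 (limma interaction, adjusted p = 1), with 0.886% of genes and no member called (0 of 4 at an unadjusted p under 0.05). Of 17 other lymphoid chemokine, lymphotoxin and receptor genes 7 rose and 1 fell on the contralateral side at 6 h after MRT (median 0.19), and 6 rose and 2 fell after BB (median 0.06).

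At 48 h contralateral Cxcl13 was back at 24 to 48 after MRT and 16 to 20 after BB. The change from 6 h was -2.07 ± 0.39 after MRT (limma adjusted p = 9.3e-05, 12.5% of genes called) and -2.55 ± 0.55 after BB (adjusted p = 0.0026, 3.15% of genes called). Against untreated tissue at 48 h the one member called was Mzb1, at -0.44 ± 0.12 after MRT (adjusted p = 0.0051, background 32.2%) and -0.46 ± 0.14 after BB (adjusted p = 0.022, background 21.6%). Those intensities are low, 34, 35, 30 and 50 untreated, 25 to 33 after MRT and 25, 26 and 29 after BB. The 50 is rat 18, the array that stood apart, and without it both calls were lost (-0.28 and -0.31, adjusted p = 0.13 and 0.2). They were also lost under quantile normalization (-0.23 and -0.21, adjusted p = 0.067 and 0.21), which instead called Jchain higher after MRT (0.48, adjusted p = 0.04), and with just the groups compared fitted (0.15 and 0.62). Without that normalization Jchain differed by 0.31 ± 0.17 (limma adjusted p = 0.15), and the mean of both Jchain probe sets by -0.09 (0.56). The BB call of Mzb1 was lost without BB rat 50 (0.081) or BB rat 51 (0.076) as well.

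At 8 d contralateral Cxcl13 was 128, 50, 154 and 143 in untreated rats, above their 6 h level by 2.40 ± 0.52 (limma adjusted p = 0.0057, 1.86% of genes called). It was 104 to 275 after MRT and 28, 264, 32 and 191 after BB. No member was called with limma against untreated tissue after MRT (background 7.91%) or BB (5.94%), nor between them (3.02%), with 1, 1 and 0 of 4 at an unadjusted p under 0.05. The mean of the 13 mitosis genes ran from 5.63 to 5.94 (log2) in untreated contralateral arrays at 6 h. At 8 d that mean ran from 5.78 to 7.69 untreated, 6.19 to 6.765 after MRT and 5.79 to 7.56 after BB. The part of tumour tissue in these pieces was not tested.

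At 15 d contralateral Cxcl13 was 171, 169, 246 and 805 after MRT. After BB it was 513, 2216, 4956 and 1904 in rats 58 to 61, so that the groups overlapped through MRT rat 43 and BB rat 58. MRT minus BB was -2.72 ± 0.55 (limma adjusted p = 0.001), the one member called, with 5.87% of genes called. The rise from 8 d was 4.46 ± 0.55 after BB (adjusted p = 1.5e-06, 1.17% of genes called). After MRT the change was 0.83 ± 0.50 (adjusted p = 0.66), with 0.0633% of genes and no member called (0 of 4 at an unadjusted p under 0.05). Without BB rat 58 at 15 d Jchain was called as well in the rise after BB (0.74, adjusted p = 0.021).

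In those BB pieces at 15 d the mean of the 13 mitosis genes was 6.28, 7.75, 8.58 and 7.26 (log2) for rats 58 to 61, which puts the 4 rats in the order of their contralateral Cxcl13. After MRT at 15 d that mean was 6.23, 6.33, 6.24 and 6.87, with rat 43 the highest in both. For MRT minus BB 4 of 13 mitosis genes were called lower (median -1.17), the median of 11 T cell markers was -0.24, and 7 of 11 macrophage markers were called higher and 1 lower (median 0.83). The part of tumour tissue in these contralateral pieces was not tested.

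**Figure D4:**
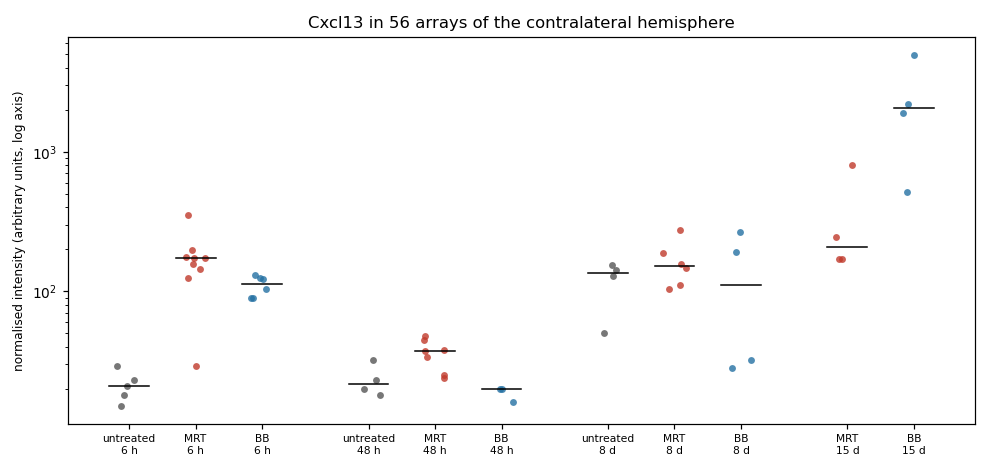
Normalised intensity (log axis) of Cxcl13 in each of 56 contralateral arrays, by treatment and time. Points are arrays (1 rat each), coloured by treatment, and black bars are group medians. The values rise at 6 h after both treatments, return to 16 to 48 at 48 h in irradiated rats and reach 513 to 4956 at 15 d after BB.

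Set against the contralateral side, untreated tumours over 3 times held more Cxcl13, by 2.93 ± 0.37 (limma adjusted p = 1.2e-11). The other 3 members were not called there, among 81.1% of genes called. Mzb1 was called lower when arrays were shifted to a common median (-0.45, adjusted p = 0.034) and with just these groups fitted (-0.19, adjusted p = 0.046). At 8 d after MRT all 4 were higher in the tumour (background 62.7%), Ms4a1 by 2.27 ± 0.28, Mzb1 by 1.20 ± 0.28, Jchain by 2.14 ± 0.31 and Cxcl13 by 5.78 ± 0.52. At 15 d after MRT all 4 were again higher (background 60.9%), Ms4a1 by 2.05 ± 0.36, Mzb1 by 4.55 ± 0.36, Jchain by 5.14 ± 0.39 and Cxcl13 by 5.24 ± 0.66. Without MRT rat 42 that of Ms4a1 was 1.19 (limma adjusted p = 7e-04).

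At 8 d after BB 3 of 4 were higher in the tumour (background 55.6%), Cxcl13 by 5.22 ± 0.66, Jchain by 1.13 ± 0.39 and Ms4a1 by 0.98 ± 0.36, and Mzb1 differed by 0.57 ± 0.36. Averaging the Jchain probe sets lost its call (0.54, adjusted p = 0.086). The calls of Jchain and Ms4a1 were lost without BB rat 55 (0.72 and 0.33, limma adjusted p = 0.14 and 0.45), when neuron markers were a covariate (0.13 and 0.055) and with just these groups fitted (0.067 and 0.22). At 15 d after BB all 4 were higher (background 61.7%), Mzb1 by 2.40 ± 0.36, Jchain by 3.05 ± 0.39, Ms4a1 by 1.39 ± 0.36 and Cxcl13 by 2.55 ± 0.66. When neuron markers were a covariate the last of these was 1.83 (adjusted p = 0.09).

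The MRT effect at 8 d was larger in tumour than in contralateral tissue for 3 of 4 members, among 37% of genes called. The interaction was 2.08 ± 0.46 for Ms4a1 (limma adjusted p = 2.3e-04), 1.42 ± 0.50 for Jchain (0.02) and 1.20 ± 0.46 for Mzb1 (0.032), and 1.53 ± 0.84 for Cxcl13 (0.15). Without untreated rat 27 those of Jchain (1.16, adjusted p = 0.08) and Mzb1 (1.08, adjusted p = 0.079) were lost. That of Jchain was lost without the untreated tumour of rat 30 (0.055) or the tumours with few mitosis transcripts (1.17, adjusted p = 0.071). That of Mzb1 was lost without untreated contralateral rat 39 (0.063) or rat 28 (0.055) and when neuron markers were a covariate (0.065). With just these groups fitted Cxcl13 was called too (0.042).

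Ordered by mean log2 level over the 22 groups, the irradiated tumours at 8 d and 15 d took the top 4 places for every member. For Ms4a1 the order was MRT 8 d (7.19 ± 0.84 SD, n = 7), MRT 15 d (6.98 ± 1.76, n = 4), BB 15 d (6.36 ± 0.34, n = 4) and BB 8 d (6.06 ± 1.41, n = 4). For Mzb1 it was MRT 15 d (9.42 ± 1.74), BB 15 d (7.51 ± 1.41), MRT 8 d (5.96 ± 0.93) and BB 8 d (5.35 ± 0.85). Jchain had the same order as Mzb1, at 11.51 ± 1.19, 9.50 ± 1.64, 8.42 ± 0.88 and 7.07 ± 1.02. For Cxcl13 it was BB 15 d (13.38 ± 0.12), MRT 15 d (13.34 ± 0.16), MRT 8 d (13.06 ± 0.43) and BB 8 d (11.58 ± 1.75), with untreated tumours at 8 d next (11.02 ± 1.20). Every pair of neighbours in these orders overlapped in its ranges.

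Over the 59 tumour arrays the members moved together to unequal degrees. After the group means were taken out, Pearson's r was 0.79 between Ms4a1 and Mzb1, 0.79 between Mzb1 and Jchain and 0.67 between Ms4a1 and Jchain. With Cxcl13 it was 0.36 for Ms4a1, 0.22 for Mzb1 and 0.36 for Jchain. These values describe arrays that share a tissue piece and an RNA extract for all genes at once. Without the 2 farthest of the 59 arrays Pearson's r of Ms4a1 and Mzb1 was 0.66.

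The genes whose levels were most like those of each member over these 59 arrays were named by Pearson's r, which here includes the differences between groups. For Mzb1 they were the immunoglobulin light chain gene Iglc1 (0.95), Jchain (0.93), Ighl2 (0.91) and the mast cell protease genes Cpa3 (0.88) and Mcpt10 (0.87). For Jchain they were Iglc1 (0.94), Mzb1 (0.93), Ighl2 (0.92), Pou2af1, a B-cell coactivator of transcription (0.91), and Mcpt10 (0.91). For Ms4a1 they were Nipal1 (0.94), the chemokine receptor gene Ccr6 (0.94), Bcl2l14 (0.93), the T cell gene Trat1 (0.93) and Tnfrsf4, which encodes OX40 (0.93). For Cxcl13 they were Ubd (0.93), Plac8 (0.92), the interferon-induced chemokine Cxcl9 (0.91), the T cell receptor component Cd3g (0.91) and the activation marker Cd69 (0.90).

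Iglc1 had a median intensity of 38 in untreated tumours at 8 d, 125 in MRT tumours at 8 d and 324 at 15 d (112 to 1749). After BB it had a median of 46.5 at 8 d and 127 at 15 d. Ighl2 had a median of 181 at 8 d and 981.5 at 15 d after MRT, and of 56 and 425.5 after BB. The mast cell gene Mcpt10, at 10 to 13 in untreated tumours at 8 d, was 13 to 160 at 8 d and 124 to 400 at 15 d after MRT. Cpa3 had a median of 62 at 8 d and 287.5 at 15 d after MRT. These genes were chosen for following the members over the same arrays, so their levels are a description, with no test.

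Genes listed for B-cell roles rose with the members at 8 d after MRT. All genes had a median difference of -0.04 there, with 21.8% of genes called higher and 26.1% lower. Of 8 measured B-cell receptor and surface genes 5 rose and none fell (median 0.83), Cd52 by 1.42 ± 0.25, the B-cell Fc receptor-like gene Fcrla by 1.36 ± 0.26 and the toll-like receptor relative Cd180 by 1.28 ± 0.29. Of 13 signalling and transcription genes 11 rose and none fell (median 1.14). Among these were Ciita, which switches on MHC class II, by 2.90 ± 0.41, the costimulatory receptor Cd40 by 2.32 ± 0.32 and the B-cell receptor kinase Btk by 1.96 ± 0.32. Macrophages and dendritic cells make Ciita, Cd40 and Btk as well, and markers of both cell types and of T cells rose in these tumours. Which cells carried the rise of the listed surface and signalling genes was not tested. After BB at 8 d 2 of the 8 surface genes rose, Cd180 by 1.14 ± 0.33 and Fcrla by 0.92 ± 0.29, and 6 of the 13 signalling genes. In that comparison 8.36% of all genes were called higher and 14.5% lower.

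Of the genes of plasma cells and antibody secretion 3 of 16 were called higher and 7 lower at 8 d after MRT (median -0.45), against 21.8% and 26.1% of all genes. The difference between these lists was not tested. Sdc1, which encodes the plasma-cell surface protein syndecan and is made by many other cells too, fell by 2.31 ± 0.41 from a median of 5405 in untreated tumours. Sec11c, a signal peptidase subunit, rose by 1.11 ± 0.22 and the elongation factor Ell2 by 0.65 ± 0.15. Between 8 d and 15 d after MRT 6 of the 16 rose and 1 fell (median 0.35), where 16.1% of all genes were called higher and 11.8% lower. They included Tnfrsf17, the plasma-cell survival receptor BCMA (0.55 ± 0.12, medians 35 and 50), the chaperone Fkbp11 (1.41 ± 0.33) and Sdc1 (1.52 ± 0.41). Over the same days 2 of 8 B-cell surface genes fell, Cd52 by 0.83 ± 0.25 and Fcrla by 0.74 ± 0.26. Of the named B-cell signalling and transcription genes Cd40 fell by 1.18 ± 0.32 and Bcl6 by 0.45 ± 0.15, while Vpreb3 rose by 0.54 ± 0.15. Of dendritic cell markers 6 of 7 fell (median -0.94) and of macrophage markers 4 of 11 (median -0.80). Of the 13 mitosis genes 10 rose then (median 1.34), and the part of these shifts in the genes named was not tested. Against untreated tumours at 8 d, the named genes of this list after BB went both ways. Prdm1 fell by 1.91 ± 0.47 (limma adjusted p = 0.0036) and Sdc1 by 1.40 ± 0.47 (0.025), while Sec11c rose by 0.68 ± 0.25 (0.04). Of all genes 8.36% were called higher there and 14.5% lower. After BB the median of the 16 plasma-cell genes between 8 d and 15 d was 0.31.

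Of the chemokines, lymphotoxins and receptors that guide lymphocytes, Cxcl13 left out, 7 of 17 rose and 2 fell at 8 d after MRT (median 0.18), against 21.8% of all genes called higher and 26.1% lower. The lymphotoxin genes Ltb (2.94 ± 0.40) and Lta (1.35 ± 0.20), which lymphocytes use to maintain follicles, rose, and Cxcl12, which retains plasma cells and precursors in the marrow, fell by 2.36 ± 0.30. After BB Lta (0.78 ± 0.23) and Ccl19 (0.85 ± 0.25) rose and Cxcl12 fell by 1.63 ± 0.34. Cxcr5, shown as the receptor of Cxcl13 and chosen after its values were seen, was 254 to 441 in MRT tumours at 8 d against 248 to 318 untreated, a difference of 0.18 ± 0.17 (limma adjusted p = 0.4). Of 13 genes of B-cell survival and help 6 rose at 8 d after MRT (median 0.41). Of all genes 21.8% were called higher and 47.8% in either direction, and the difference from this list was not tested. Among the 6 were the interleukin receptors Il7r (2.62 ± 0.35) and Il4r (1.69 ± 0.27) and the T cell adaptor Sh2d1a (2.89 ± 0.51). From 8 d to 15 d after MRT Il7r fell by 1.48 ± 0.35 and Tnfsf13, which encodes the survival factor APRIL, by 0.86 ± 0.27, while Cxcl12 rose by 1.71 ± 0.30. The survival factor gene Tnfsf13b was not analysed here.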

How the data were processed

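RNA from tumours and contralateral regions was hybridised to Affymetrix rat arrays, 1 array per sample. The values are normalised intensity values deposited by the authors on a linear scale as whole numbers from 7 to 27837. Per the submitters' processing notes Affymetrix Expression Console was used, with MAS5 and RMA named for MRT and untreated arrays and RMA for the 35 BB arrays. At an intensity of 25 the step between whole numbers is 0.0577 (log2) wide. Of 31099 probe sets 20826 have 1 gene symbol, which gave 14217 genes, each by its brightest probe set in mean log2.

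Log2 values were fitted with limma 3.58.1 in R 4.3.3 (group means, intensity trend, Benjamini-Hochberg adjustment over all genes, called at an adjusted p under 0.05), with tumours, contralateral tissue and both tissues fitted separately. Tables and figures used Python 3.11.15. The scripts were checked on simulated data. The members, lists and tests were chosen with earlier results of these data known, and 8 of 38 comparisons were added after levels were seen. Named list genes are at most 3 called genes per list with the largest statistic, in MRT and BB against untreated tumours at 8 d and MRT tumours at 15 d against 8 d. Likeness genes are the 5 with the highest r per member. The number of arrays limits the precision.

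Both tissues of a rat share its number, so 55 rats are paired by animal. Deviations of the 2 tissues correlated above 0.1 in 38 of them (median 0.19, against -0.04 for other rats of the group). Alternatives were the rat as a replicate block, array shifts, quantile normalization, probe set means, a filter on dim genes, a neuron covariate, no trend, fits on just the groups compared, and leaving out single arrays or the tumours with few mitosis transcripts, the last chosen after seeing the data. Single arrays were left out only from groups of at most 5. No MRT array at 6 h, 48 h or 8 d and no BB array at 6 h was thus left out singly. No columns were left out.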

Additional observations from a re-analysis of the deposited data

Results flagged for a closer look

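In 9 of 84 sets of values, each of 1 member in 1 group of 4 to 10 arrays, 1 array stood far from the others by Dixon's test, which chance gives in about 1 of 20 sets. Ms4a1 was 38 in MRT contralateral rat 21 at 48 h. Mzb1 was 46 in the MRT tumour of rat 7 at 6 h, 33 in MRT contralateral rat 25 at 48 h and 32 in BB contralateral rat 46 at 6 h. Jchain was 128 in that same tumour of rat 7, 84 in untreated contralateral rat 3 at 6 h and 66 in untreated contralateral rat 28 at 8 d. Cxcl13 was 29 in MRT contralateral rat 10 at 6 h and 50 in untreated contralateral rat 28 at 8 d. The tumour of rat 7 was the highest of its group for Mzb1, Jchain and Cxcl13.

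The effect of MRT differed between groups by limma's interaction for 4 results. For Ms4a1 it was 2.50 larger (log2) at 8 d than at 48 h in tumours. In tumour against contralateral tissue at 8 d it was larger by 2.08 for Ms4a1, 1.42 for Jchain and 1.20 for Mzb1.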

How the results depend on the processing

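Over 38 comparisons 49 member values were called and 103 were not, and no called value changed sign under any alternative. Calls were lost for 13 values with just the groups compared fitted, 4 with the neuron covariate, 2 under quantile normalization, 1 with probe set means, 1 of 21 without the tumours with few mitosis transcripts, 29 of 286 on leaving out 1 array, and 0 with arrays shifted to a common median or without the intensity trend. With just the groups compared fitted, the number of members called became 0 for MRT and for BB against untreated tumours at 6 h, MRT against BB tumours at 15 d, BB tumours at 8 d against 48 h and 15 d against 8 d, and contralateral MRT and BB at 48 h. It became 1 for contralateral MRT at 8 d and for BB tumour against contralateral at 8 d, 2 for MRT tumours at 48 h against 6 h and for untreated tumour against contralateral, and 3 for the MRT effect at 8 d against 48 h. Such fits hold fewer arrays. With arrays shifted to a common median it became 1 for BB against untreated tumours at 8 d and 2 for untreated tumour against contralateral. Under quantile normalization it became 0 for contralateral BB at 48 h, and with the neuron covariate 1 for BB tumour against contralateral at 8 d; the cause was not tested. Single arrays were left out only from groups of at most 5, so every MRT array before 15 d stayed in. Leaving out 1 array at a time gave 0 to 1 members called for MRT tumours at 6 h, BB tumours at 8 d and contralateral MRT and BB at 48 h. It gave 2 to 4 for MRT tumours at 8 d, 0 to 3 for MRT against BB tumours at 8 d and BB tumours at 8 d against 48 h, and 0 to 2 for MRT against BB tumours at 15 d and BB tumours at 15 d against 8 d. It gave 1 to 2 for the MRT effect at 8 d against 48 h and contralateral BB at 15 d against 8 d, and 1 to 3 for BB tumour against contralateral and the MRT effect in tumour against contralateral at 8 d. With the rat as a replicate block (correlation 0.157) the untreated tumour against contralateral difference of Cxcl13 was 2.95 and no call changed. The filter on the dimmest 30% of genes removed Ms4a1, Mzb1 and Jchain, which are dim in most groups, and changed none of the 19 called Cxcl13 values. Low intensities limit what could be seen for Ms4a1 and Mzb1 before 8 d.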
